A study of Mus musculus with 8 samples.

Results

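The 10 genes for scavenger and endocytic receptors, often used as marks of M2-like macrophages, were followed in tumor-associated macrophages (TAMs) of WT and miR-21-/- mice. They are Cd163, Mrc1, Lyve1, Folr2, Timd4, Stab1, Siglec1, Marco, Msr1 and Cd36. The genes were chosen by symbol, and all 10 were found once each among the 53247 genes of the table. LLC cells, a Lewis lung carcinoma line of the mouse, were implanted s.c., and after 14 days the cells of the tumors that carried CD45, CD11b, MHC II and F4/80 together were sorted as TAMs. The 4 WT samples came from mice of the strain C57/BL6, and the 4 miR-21-/- samples from mice with a germline deletion of Mir21a (Mir21atm1Yoli), which were bred onto that background. All mice were given as 10 weeks old. Because the deletion is germline, miR-21 was missing from every cell of the miR-21-/- mice, while the implanted LLC cells were the same in both groups. For miR-21-/- replicate 1, the title names a pair of sample numbers and does not say whether it is a pool, and it was counted as 1 sample. Replicate numbers of the miR-21-/- samples follow the order of the samples and do not match the numbers in their titles. An equal number therefore does not pair a WT with a miR-21-/- sample.

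Scavenger receptors bind modified lipoproteins, dying cells, sugars or free haemoglobin at the cell surface and carry them into endosomes for breakdown. In macrophages, several of them are induced by IL-4, IL-10 or glucocorticoids, and macrophages that line vessels in many tissues carry Lyve1, Folr2, Cd163 and Mrc1 together. In tumors, such receptors are widely used to tell M2-like TAMs from inflammatory ones, and Cd36 is also known for the uptake of fatty acids. The comparison asked how far the mRNA of each receptor differed between the genotypes, and how much it varied among mice of 1 genotype.

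The values are CPM, counts per 1e+06 reads, as the authors deposited them. The steps between low values put the depth at 20.2 to 33.4 times 1e+06 reads, which makes 1 read 0.0300 to 0.0495 CPM. The macrophage markers Adgre1, Itgam, Ptprc, Csf1r, Cd68, Fcgr1, H2-Ab1 and Lyz2 were present in all samples and summed to 11534 to 12877 CPM (WT) and 12350 to 14910 CPM (miR-21-/-). Mir21a was listed at 0.0001 CPM in all 8 samples, which is the floor of the table, so the genotypes could not be checked by it. Samples correlated across genes with the others of their genotype at a median r of 0.990 (WT replicate 4) to 0.993.

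miR-21a-5p, the main mature product of the deleted gene, is read from the minus strand of chromosome 11 at chr11:86584120-86584141 (RefSeq, GRCm38.p6). It is shown because a miRNA pairs with its targets mainly through bases 2 to 8, which are in capitals.

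mmu-miR-21a-5p: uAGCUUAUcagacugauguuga

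The longest annotated 3′ UTR of each receptor (GENCODE vM21, GRCm38, 121 to 2518 bases) was searched for the complement of that seed. None of the 10 held the 8-base site ATAAGCTA, the 7-base site ATAAGCT or the 7-base site TAAGCTA, which occurred in 2.24%, 7.75% and 7.65% of the 11449 tested genes with a 3′ UTR. The 6-base site TAAGCT, present in 26.6% of those genes, was found once in Lyve1, at base 251 of 1565, and once in Timd4, at base 422 of 1129. Both are shown with the site in capitals. A match is a description of the sequence and not evidence of binding.

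Lyve1: taaaacagctccTAAGCTcacactcagaga

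Timd4: cttcttggtatcTAAGCTgccttttgtttt

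Cd36 was the only receptor past the threshold, and it was higher in miR-21-/- TAMs. Cd163 and Lyve1 had lower means in miR-21-/- TAMs, but 1 WT sample lay among the miR-21-/- samples and neither passed. Siglec1 was lower in every miR-21-/- sample by a smaller amount. Mrc1, Folr2, Stab1, Msr1, Marco and Timd4 had overlapping groups. Differences were fitted with limma on log2(CPM + 1) over the 13850 genes that averaged 1 or more per 1e+06 of the column totals. A gene passed when its fold change was over 1.5 and its p, adjusted by the Benjamini-Hochberg method, was no higher than 0.005. Timd4 was below the filter, so 9 of the 10 receptors were tested. Of the 9, 1 passed, against 7.12% of all tested genes, with 2.89% passing as higher and 4.23% as lower in miR-21-/- TAMs. Groups did not overlap for 2 of the 10, Cd36 and Siglec1, against 35.1% of all tested genes. The log2 fold changes were above 0 for 5 and below 0 for 4 of the 9, with a median of 0.04 beside -0.10 over all tested genes. In bulk RNA, fewer cells that carry a receptor and less mRNA per cell cannot be told apart.

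**Figure D1:**
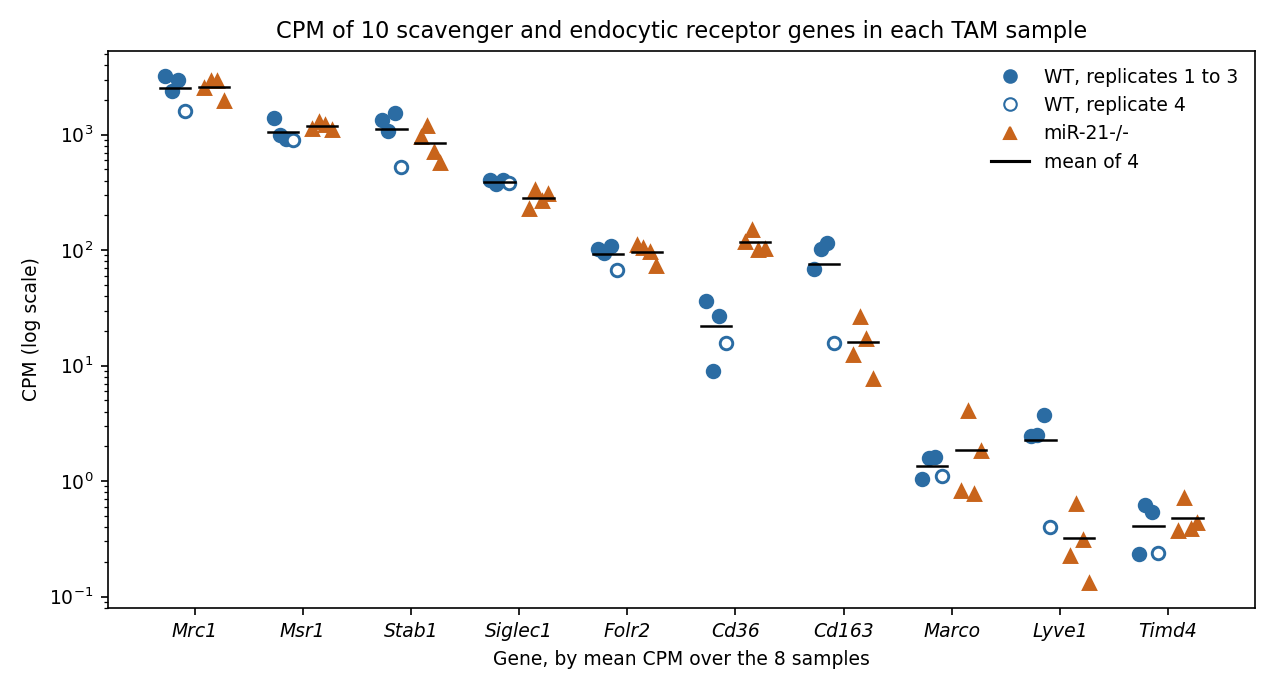
CPM (log axis) of the 10 receptor genes in each of the 8 TAM samples, with circles for WT, triangles for miR-21-/- and lines for the mean of 4. WT replicate 4, drawn as an open circle, lies at 15.6 CPM for Cd163 and at 0.398 CPM for Lyve1, within the range of the miR-21-/- samples.

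Cd163, the receptor that clears haemoglobin bound to haptoglobin, lies on the plus strand of chromosome 6 (chr6:124304656-124330527, GRCm38). WT replicates 1 to 4 had 68.4, 102, 115 and 15.6 CPM. Replicates 1 to 4 of miR-21-/- TAMs had 12.5, 26.5, 17.2 and 7.67 CPM. WT replicates 1 to 3 were above all miR-21-/- samples, while WT replicate 4 was below miR-21-/- replicates 2 and 3. The mean (± SD, n = 4) was 75.3 ± 44.4 CPM for WT and 16.0 ± 8.04 CPM for miR-21-/- TAMs, with a log2 fold change of -1.97 (SE 0.57) that did not pass in limma (adjusted p = 0.0222). The 95% confidence interval of -3.23 to -0.71 lay below 0. Without WT replicate 4, the log2 fold change was -2.60 and passed in limma (adjusted p = 0.000597). That fit leaves out a sample seen to be low for Cd163, so the pass adds no support. With any other single sample left out, Cd163 did not pass (limma adjusted p = 0.0226 to 0.0644). With no filter, its adjusted p in limma was 0.0859. In WT replicate 4 the macrophage markers summed to 11534 CPM, the lowest of WT, and it was the lowest WT sample for 3 of the 8. These were Lyz2 (3367 CPM), Csf1r (1108 CPM) and Cd68 (590 CPM), while Itgam (2318 CPM) and Ptprc (1295 CPM) were the highest of WT there. Adgre1, Fcgr1 and H2-Ab1 lay inside the range of the other WT samples. Its fibroblast (137 CPM) and erythroid (138 CPM) markers summed to the highest of WT. The part of any of these in the Cd163 level of WT replicate 4 was not tested.

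Lyve1, a hyaluronan receptor named for lymphatic vessels and also carried by macrophages around blood vessels, lies on the minus strand of chromosome 7 (chr7:110850607-110863239). It was rare in these TAMs, with 2.47, 2.49, 3.71 and 0.398 CPM in WT replicates 1 to 4, from 74, 72, 75 and 10 reads. The 4 miR-21-/- samples had 0.224, 0.630, 0.307 and 0.132 CPM, from 6, 21, 8 and 4 reads. The pattern was that of Cd163: WT replicates 1 to 3 stood above all miR-21-/- samples, and WT replicate 4 was below miR-21-/- replicate 2. The mean CPM was 7.02-fold higher in WT, and the log2 fold change, which the added 1 CPM makes smaller for such a low gene, was -1.19 (SE 0.32, limma adjusted p = 0.0163). Lyve1 came past the filter only through WT replicates 1 to 3, since the other samples were at most 0.630 CPM. With no filter, its adjusted p in limma was 0.0632. Without WT replicate 4, the log2 fold change of Lyve1 was -1.56 and passed (limma adjusted p = 0.000206). That fit leaves out the lowest sample of the group that carried Lyve1 past the filter, so the pass adds no support. With all 8 samples, the log2 fold change ranged from -2.29 to -0.24 with pseudocounts of 0.1 and 10. Of the lymphatic endothelial markers, Prox1 and Ccl21a were at most 0.0399 CPM and Reln at most 0.0694 CPM in any sample, and Flt4 was at most 0.390 CPM. Pdpn, which macrophages can also express, was the exception and rose from 9.89 to 112 CPM on average, opposite to Lyve1.

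Siglec1, a receptor for sialic acid on cells and pathogens, lies on the minus strand of chromosome 2 (chr2:131069220-131086765). It varied little in WT TAMs, where the replicates had 405, 374, 404 and 378 CPM. In miR-21-/- TAMs, replicates 1 to 4 had 227, 331, 267 and 308 CPM. All 4 miR-21-/- samples were below all 4 WT samples, and WT replicate 4 was among the others of its group. The mean (± SD, n = 4) was 390.5 ± 16.4 CPM for WT and 283 ± 45.9 CPM for miR-21-/- TAMs. The log2 fold change of -0.48 (SE 0.10) missed both limits of the threshold in limma (adjusted p = 0.00651). It was -0.36 (limma adjusted p = 0.0204) when samples were rescaled by the median of ratios and -0.56 (limma adjusted p = 0.00272) after quantile normalization, which is also under the fold change limit.

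Cd36, the class B scavenger receptor for oxidized lipoproteins and long-chain fatty acids, lies on the minus strand of chromosome 5 (chr5:17781690-17888801). It had 36.1, 9.003, 27.1 and 15.6 CPM in WT replicates 1 to 4. In miR-21-/- replicates 1 to 4 it had 118, 149, 101 and 102 CPM. Every miR-21-/- sample was above every WT sample, and the lowest WT sample was replicate 2, not replicate 4. Cd36 rose from 21.9 ± 12.05 to 117 ± 22.8 CPM (SD, n = 4 each), with a log2 fold change of 2.52 (SE 0.34, 95% confidence interval 1.76 to 3.28) that passed in limma (adjusted p = 0.000540). It passed in all 8 fits that left out 1 sample, with log2 fold changes of 2.18 to 2.81. With no filter on low genes its adjusted p in limma was 0.00554, just over the limit. Other cells that carry Cd36 were looked for by their markers. The 4 adipocyte markers summed to at most 0.208 CPM in any sample. Those of platelets summed to 21.5 to 105 CPM (WT) and 48.6 to 85.4 CPM (miR-21-/-), nearly all of it Ppbp, while Gp1bb was at the floor in all samples. Blood endothelial markers summed to 151 to 299.6 CPM and 198 to 286 CPM, mostly from Pecam1, which leukocytes share, with Kdr at 6.88 to 13.5 CPM and Cdh5 at 3.97 to 7.17 CPM over the 8 samples and Tek, Emcn and Cldn5 at most 0.297 CPM. Pecam1, Kdr and Cdh5 had log2 fold changes of 0.21, -0.19 and -0.21, and none of them passed. The part of endothelial cells in the Cd36 level was not tested.

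**Figure D2:**
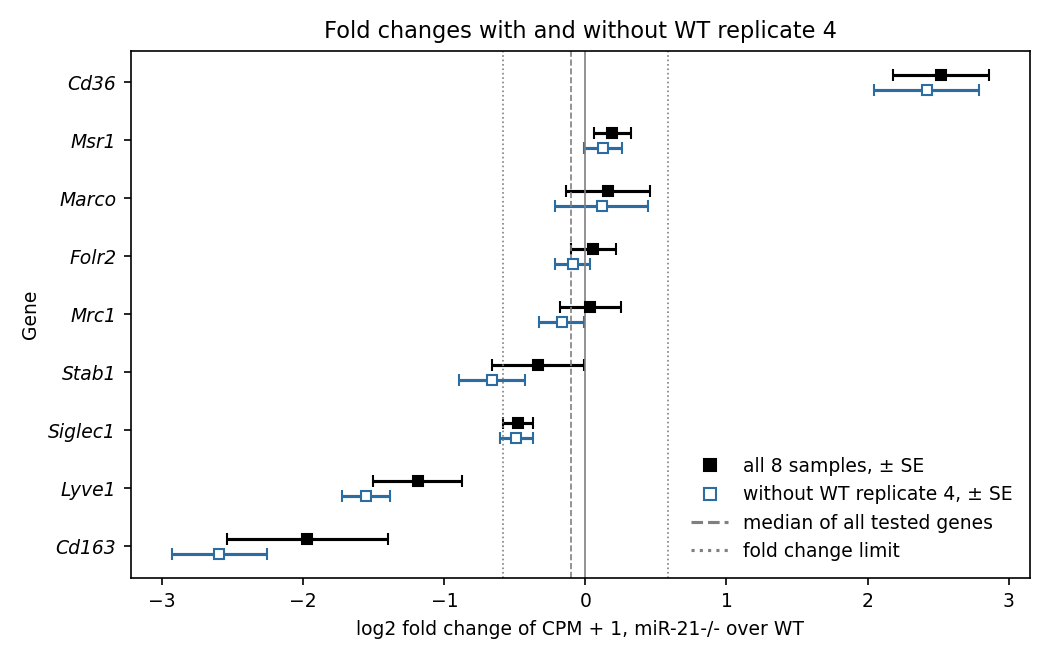
log2 fold change of CPM + 1 (miR-21-/- over WT, ± SE) of the 9 tested receptors, with all 8 samples (filled) and without WT replicate 4 (open). Cd163 moves from -1.97 to -2.60 and Lyve1 from -1.19 to -1.56, while Cd36 and Siglec1 stay near 2.52 and -0.48.

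The promoters of Cd163 and Cd36, the lowest and the highest log2 fold change on the log2(CPM + 1) scale, are shown. Lyve1, which differed more than Cd163 by the ratio of mean CPM (7.02-fold against 4.72-fold), was not among the promoters found. The windows run from 250 bases before to 50 after the RefSeq start (GRCm38.p6, 5′ to 3′ on the strand of the gene). The Cd163 window is chr6:124304401-124304700, plus strand, and the Cd36 window chr5:17835847-17836146, minus strand, at a start inside the annotated gene. Promoters of 7 of the 10 receptors were found, 8 in all, and both strands were searched for 6 motifs. No motif letters were found in the Cd163 window. In the Cd36 window, capitals mark a nuclear receptor core (AGGTCA, here as TGACCT, 228 bases before the start) and a Maf core (TGCTGA, 11 bases before it), which did not overlap.

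Cd163: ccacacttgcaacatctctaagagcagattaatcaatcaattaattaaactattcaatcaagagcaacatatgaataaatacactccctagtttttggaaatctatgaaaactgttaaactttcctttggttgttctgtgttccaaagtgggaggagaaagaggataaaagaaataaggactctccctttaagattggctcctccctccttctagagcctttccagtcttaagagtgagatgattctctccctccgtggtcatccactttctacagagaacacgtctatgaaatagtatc

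Cd36: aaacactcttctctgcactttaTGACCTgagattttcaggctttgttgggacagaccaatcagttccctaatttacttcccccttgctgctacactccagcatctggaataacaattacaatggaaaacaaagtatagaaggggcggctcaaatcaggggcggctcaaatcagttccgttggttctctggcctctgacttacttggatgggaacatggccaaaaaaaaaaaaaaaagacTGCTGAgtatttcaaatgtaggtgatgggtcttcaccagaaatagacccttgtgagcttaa

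Among the 8 receptor promoters, the Maf core was in 5, and both promoters of Folr2 count among these. The PU.1 core GAGGAA was in 3, the nuclear receptor core in 2 and the AP-1 site TGANTCA in 1. The STAT site TTCNNNGAA and the C/EBP core TTGCNNAA were in none. Of all 32851 promoters of that length, 19.5% held the Maf core, 28.3% the PU.1 core, 16.3% the nuclear receptor core, 7.81% the AP-1 site, 8.30% the STAT site and 10.8% the C/EBP core. Letters missing from a window of 300 bases say nothing of the factor.

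Mrc1, the mannose receptor, lies on the plus strand of chromosome 2 (chr2:14229392-14332057) and was the most abundant of the 10 receptors. It had 3216, 2393, 2998 and 1611 CPM in WT replicates 1 to 4. Replicates 1 to 4 of miR-21-/- TAMs had 2532, 2893, 2890 and 1941 CPM, inside the WT range. WT replicate 4 and miR-21-/- replicate 4 were each the lowest of their group, and the equal number does not pair them. The log2 fold change was 0.04 (SE 0.21, 95% confidence interval -0.44 to 0.51, limma adjusted p = 0.910), and it was -0.17 without WT replicate 4. Mir511, which lies within Mrc1 on the same strand, was at the floor in all samples.

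Folr2, the folate receptor β of macrophages, lies on the minus strand of chromosome 7 (chr7:101839988-101857194). WT replicates 1 to 4 had 102, 95.0, 108 and 67.2 CPM. The 4 miR-21-/- samples had 112, 104, 95.7 and 73.4 CPM, so that the groups overlapped over nearly all of their range. The log2 fold change was 0.06 (SE 0.16, 95% confidence interval -0.30 to 0.41, limma adjusted p = 0.810). The antisense gene Gm10602, which overlaps Folr2, had at most 11.3 CPM, and reads of the overlap may be shared between them.

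Stab1, an endocytic receptor for oxidized lipoproteins and matrix proteins, lies on the minus strand of chromosome 14 (chr14:31139013-31168641). It had 1328, 1066, 1555 and 523 CPM in WT replicates 1 to 4. In miR-21-/- TAMs, replicates 1 to 4 had 948, 1193, 707 and 567 CPM. WT replicate 4 and miR-21-/- replicate 4 were again each the lowest of their group, and WT replicate 4 was the lowest of all 8. The log2 fold change was -0.34 (SE 0.33, 95% confidence interval -1.06 to 0.39, limma adjusted p = 0.453). It ranged from -0.66 without WT replicate 4 (limma adjusted p = 0.0514) to -0.14 without WT replicate 3 (limma adjusted p = 0.782). It was also smaller without WT replicate 1 (-0.22) or miR-21-/- replicate 4 (-0.16), and passed in none of the 8 fits that left out 1 sample. Nt5dc2, on the other strand, overlaps the end of Stab1 and had at most 41.4 CPM.

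Msr1, the class A scavenger receptor for modified lipoproteins, lies on the minus strand of chromosome 8 (chr8:39581685-39642673). WT replicates 1 to 4 had 1383, 989.9, 918 and 897 CPM. In miR-21-/- replicates 1 to 4 it had 1129, 1277, 1202 and 1108 CPM. All miR-21-/- samples were above WT replicates 2 to 4 and below WT replicate 1. The log2 fold change was 0.19 (SE 0.13, 95% confidence interval -0.10 to 0.48, limma adjusted p = 0.275). Without WT replicate 1, the groups did not overlap and it was 0.33 (limma adjusted p = 0.0126), which did not pass, and it was 0.13 without WT replicate 4.

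Marco, a class A receptor that takes up particles and bacteria, lies on the minus strand of chromosome 1 (chr1:120474538-120505024). It was near the filter, with 1.04, 1.59, 1.63 and 1.12 CPM in WT replicates 1 to 4. Replicates 1 to 4 of miR-21-/- TAMs had 0.821, 4.08, 0.768 and 1.82 CPM, from 22, 136, 20 and 55 reads. miR-21-/- replicates 1 and 3 were below all WT samples and the other 2 above them. The log2 fold change of 0.16 (SE 0.30, limma adjusted p = 0.7001) rested on miR-21-/- replicate 2, without which it was -0.16.

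Timd4, a receptor for phosphatidylserine on dying cells that marks long-lived resident macrophages, lies on the plus strand of chromosome 11 (chr11:46810800-46844332). It was below the filter in these TAMs, with 0.234, 0.623, 0.544 and 0.239 CPM in WT replicates 1 to 4, from 7, 18, 11 and 6 reads. The 4 miR-21-/- samples had 0.373, 0.720, 0.384 and 0.430 CPM, from 10, 24, 10 and 13 reads. The groups overlapped, and the difference in mean of 0.0665 CPM was within their spread (two-sided exact permutation test over 35 splits, p = 0.657, the smallest possible being 0.0286).

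Several receptors were low or high in the same samples of a genotype. WT replicate 4 was below the other WT samples for 6 of the 10 receptors, by 7.26-fold for Lyve1, 6.11-fold for Cd163, 2.52-fold for Stab1, 1.78-fold for Mrc1, 1.51-fold for Folr2 and 1.22-fold for Msr1 relative to their mean. It lay inside their range for Siglec1, Marco, Timd4 and Cd36. Over all tested genes, WT replicate 4 was the lowest WT sample for 32.8%. Of the miR-21-/- samples, replicate 2 was the highest for 9 of the 10 receptors, all except Folr2, against 27.7% of all tested genes. Replicate 4 was the lowest miR-21-/- sample for 6 of the 10 against 22.6%. Replicate 2 had the most reads of all libraries, 33.4 in units of 1e+06, and the highest fibroblast marker sum of the miR-21-/- samples (44.1 CPM), and the part of either was not tested. As a ratio of highest to lowest sample within WT, Lyve1 (9.31), Cd163 (7.39) and Cd36 (4.01) varied most and Siglec1 (1.08) least.

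**Figure D3:**
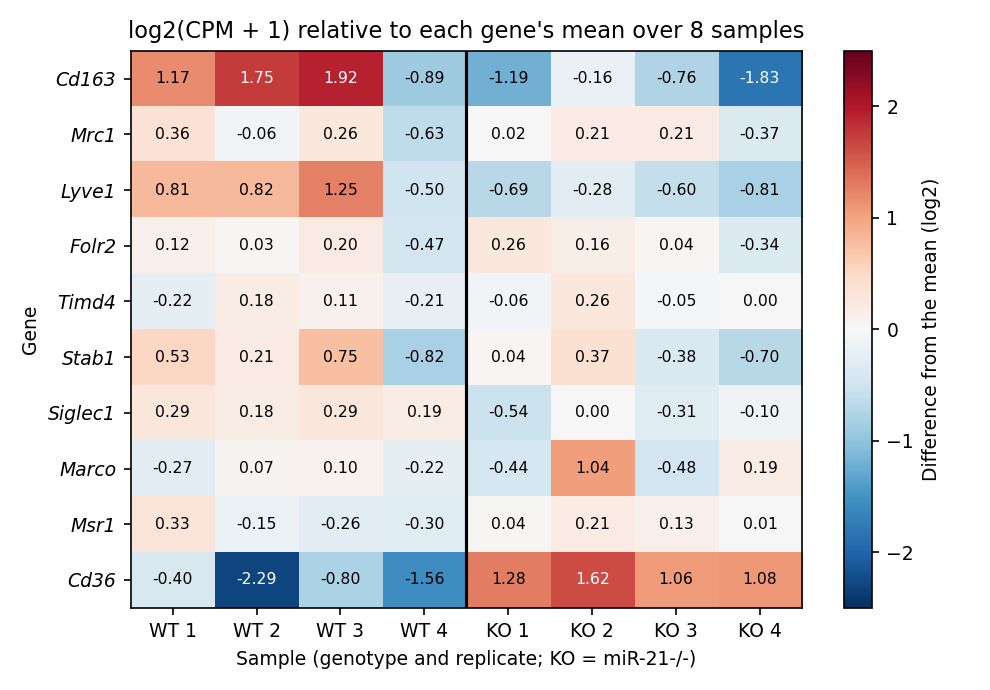
log2(CPM + 1) of each receptor in each sample, minus the mean of that receptor over the 8 samples (KO stands for miR-21-/-). WT replicate 4 is below the mean for Cd163, Mrc1, Lyve1, Folr2 and Stab1, where WT replicates 1 and 3 are above it, and Cd36 is below its mean in all WT samples.

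The genes most like each receptor were ranked by the root mean square difference of their log2(CPM + 1) values over the 8 samples, after the mean of each gene was removed. This was done for receptors with a log2 range over 1, which Mrc1, Folr2, Siglec1 and Msr1 did not reach. For Cd163 they were Pmp22 (0.397), Npl (0.415) and Gas6 (0.476), beside a median of 1.30 over all tested genes. Npl had 49.0, 59.4, 62.5 and 8.40 CPM in WT and 3.47, 7.52, 5.45 and 2.91 CPM in miR-21-/- replicates 1 to 4, with the same low WT replicate 4 as Cd163. For Lyve1 they were Abcb4 (0.195), Slc12a5 (0.221) and Nynrin (0.268), beside a median of 0.735. For Cd36, Slc4a11 (0.367) and Cxcl10 (0.400) were among them, beside a median of 1.43. Cxcl10, a chemokine induced by interferon, had 74.0, 42.9, 53.3 and 54.0 CPM in WT and 357, 287, 250.5 and 239 CPM in miR-21-/- replicates 1 to 4. Like Cd36, it was lowest in WT replicate 2 and highest of WT in replicate 1. For Stab1 they were Gas7 (0.206), Fam20c (0.213) and Adgrl2 (0.232), beside 0.548, and for Marco they were Gm15590 (0.250), Mansc1 (0.254) and Zfyve28 (0.270), beside 0.488. Likeness over 8 samples is a description, since the samples share genotype and library.

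Levels were compared between receptors per length, as CPM per kb of the longest protein-coding transcript. The order in WT TAMs was Mrc1 (475), Msr1 (288), Stab1 (139.7), Folr2 (77.1), Siglec1 (61.1), Cd163 (16.9), Cd36 (6.46), Lyve1 (0.784), Marco (0.698) and Timd4 (0.189). Neighbours in this order had samples that overlapped except between Msr1 and Stab1, Siglec1 and Cd163, Cd36 and Lyve1, and Marco and Timd4. In miR-21-/- TAMs the first 5 kept their order, with 477, 324, 107, 79.9 and 44.3 CPM per kb. Cd36 came sixth with 34.5, then Cd163 (3.59), Marco (0.972), Timd4 (0.219) and Lyve1 (0.112). Cd36 and Cd163 thus changed places, and their samples, which overlapped in WT, did not overlap in miR-21-/- TAMs.

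Genes related to these receptors were counted in 7 lists, set out by role. Their counts are read beside the 7.12% called over all tested genes (2.89% higher and 4.23% lower). That balance turned with the scaling: 40.6% of the calls were higher in the main fit, 59.3% after quantile normalization and 59.8% with the median of ratios. Of 28 other scavenger and endocytic receptors, 20 were tested, 2 were higher and 3 lower past the threshold (25.0% called), and the median log2 fold change was -0.37. Clec7a, the β-glucan receptor dectin-1, rose from 117 ± 11.7 to 337 ± 28.4 CPM (log2 fold change 1.53), and Scarf1, a receptor for modified lipoproteins, rose from 28.6 to 45.3 CPM. Colec12, a collectin with a scavenger receptor domain, fell from 5.34 to 1.38 CPM, Cd33, a sialic acid receptor, from 93.3 to 36.8 CPM and Scarb1, the receptor for high-density lipoprotein, from 138 to 76.8 CPM. The lowest log2 fold change was that of Mgl2, a galactose-type lectin (-1.62, limma adjusted p = 0.0253), which did not pass.

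Of 17 genes of Lyve1+ Folr2+ macrophages, 12 were tested, 1 was higher and 6 lower past the threshold (58.3% called, beside 7.12% of all tested genes), and the median log2 fold change was -0.94. The organic anion transporter Slco2b1 fell from 8.17 ± 3.41 to 0.248 ± 0.143 CPM (SD, n = 4 each). It was at most 0.425 CPM in miR-21-/- TAMs, so it came past the filter only through WT. The growth factor Igf1 fell from 42.8 ± 19.5 to 5.80 ± 2.08 CPM and the Axl and Mertk ligand Gas6 from 155 ± 63.4 to 37.4 ± 9.66 CPM. The chemokine Ccl8 rose from 69.5 ± 31.1 to 388 ± 93.1 CPM. WT replicate 4 was the lowest WT sample for all 12 tested genes of this list, the risen Ccl8 included, and without it 9 genes of the list passed. Folr2 itself, with a log2 fold change of 0.06, did not go with the 6 that fell. Of 21 regulators of the receptors, 1 was higher and 0 lower past the threshold (4.76% called, near the 7.12% of all tested genes), and the median was -0.06. It was Il4ra, the IL-4 receptor chain, which rose from 473 ± 74.5 to 792 ± 71.4 CPM, and the lowest was the transcription factor Klf4 (-1.13, limma adjusted p = 0.00535).

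Haem and iron handling, the path downstream of Cd163, had 8 tested genes, of which 1 was higher and 1 lower (25.0% called, beside 7.12% of all tested genes), with a median of 0.44. Blvrb, a biliverdin reductase, rose from 61.1 to 108 CPM and Hebp1, a haem-binding protein, fell from 22.0 to 11.5 CPM. Hmox1, the haem oxygenase, headed the list by log2 fold change (0.98, limma adjusted p = 0.00994) and did not pass. Uptake and storage of lipids, the path of Cd36, had 11 tested genes, of which 1 was higher and 0 lower (9.09% called, near the 7.12% of all tested genes), with a median of 0.42. It was Npc2, a carrier of cholesterol out of lysosomes, which rose from 438 to 662 CPM, while the fatty acid-binding genes Fabp5 (0.93, limma adjusted p = 0.00566) and Fabp4 (-0.28) were the highest and lowest log2 fold changes. The call in this list depended on the fit, with 0 to 3 called when 1 sample was left out. Of 4 tested genes for the shedding of receptors from the surface, 2 passed (50.0% called, beside 7.12% of all tested genes). When 1 sample was left out, 1 to 2 were called. Rhbdf2, a partner of the protease Adam17, rose from 95.6 to 145 CPM and Rhbdf1 fell from 5.40 to 1.87 CPM. Adam17 itself had a log2 fold change of 0.02. None of the 15 genes of the endocytic coat and endosomes passed in limma, beside 7.12% of all tested genes, 6 had an unadjusted p at or under 0.05 (46.4% of all tested genes did), and the median was -0.03. WT replicate 4 was the lowest WT sample for all 15.

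**Figure D4:**
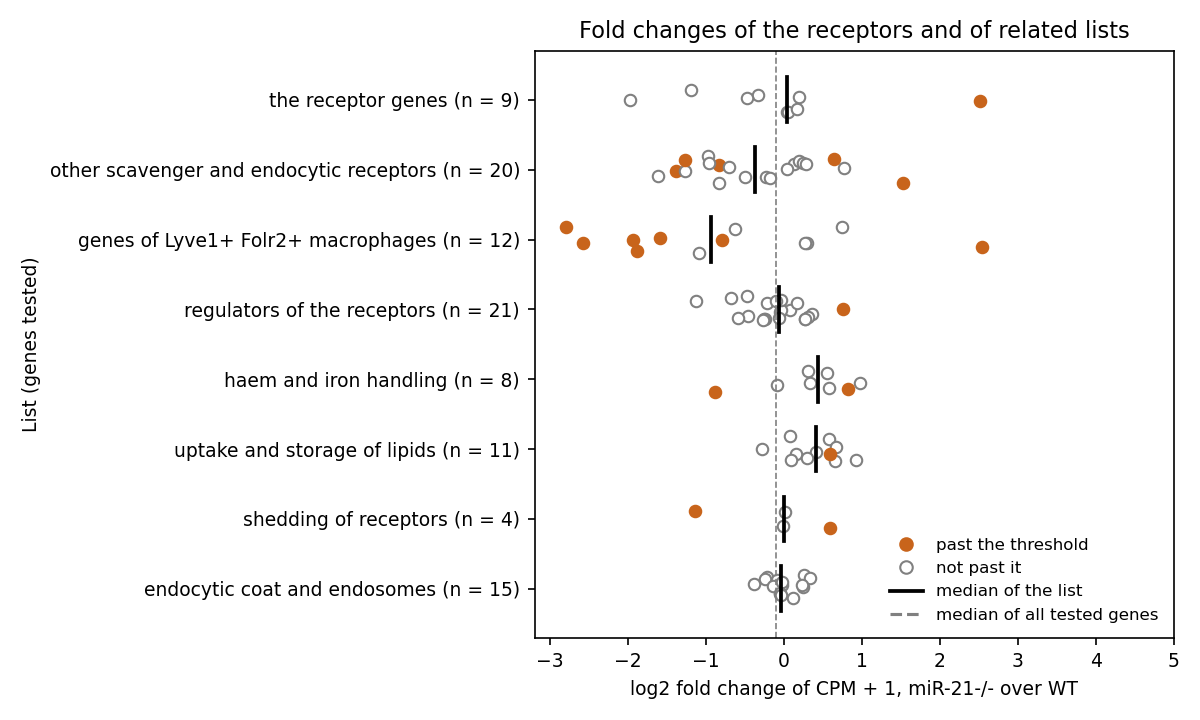
log2 fold change of CPM + 1 (miR-21-/- over WT) of each tested gene of the receptors and of 7 related lists, with filled points for genes past the threshold, black bars for the median of each list and a dashed line for that of all tested genes (-0.10). The genes of Lyve1+ Folr2+ macrophages have the lowest median (-0.94), with Ccl8 at 2.54 on the other side.

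Markers of other cells moved with the genotypes beside these differences. The 6 fibroblast markers, led by Col3a1, added up to 60.7 to 137 CPM in WT TAMs against 10.1 to 44.1 CPM in miR-21-/- TAMs, and 3 of the 5 tested were lower past the threshold. The 3 erythroid markers, led by Hbb-bs and all past the threshold, summed to 54.7 to 138 CPM and 15.2 to 21.5 CPM. The 5 neutrophil markers, led by S100a9, summed to 716 to 1099 CPM and 531 to 698.5 CPM, without overlap, and none passed in limma. The fibroblast and erythroid sums were highest in WT replicate 4, where Cd163, Lyve1, Mrc1, Folr2 and Stab1 were the lowest of WT. Of the lists given with Lyve1 and Cd36, the lymphatic endothelial sum, which is nearly all Pdpn, was 3.36 to 15.6 CPM in WT and 74.3 to 158 CPM in miR-21-/- TAMs, and the adipocyte sum 0.0994 to 0.208 and 0.0004 to 0.0665 CPM, and neither overlapped. Sums of the remaining 5 marker lists overlapped between the groups except for epithelial tumor cells, at 452 to 877 and 381 to 677 CPM for monocytes (led by Ccr2), 11.2 to 19.9 and 15.2 to 38.4 CPM for dendritic cells (Xcr1), 5.99 to 8.56 and 5.80 to 25.4 CPM for T and NK cells (Cd8a), 1.43 to 4.47 and 0.810 to 5.63 CPM for B cells (Pax5), and 18.8 to 24.8 and 12.7 to 17.9 CPM for epithelial tumor cells led by Krt8 (WT, then miR-21-/-). The part of these cells in the differences of the receptors was not tested.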

How the data were processed

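TAMs in 4 WT and 4 miR-21-/- samples were analysed as bulk mRNA libraries. The authors deposited CPM (counts per 1e+06 reads), raised by 0.0001, for 53247 genes. The submitters' processing notes name STAR, Partek 7.0 and the build mm10. All 10 receptor rows start where GENCODE vM21 (GRCm38) has them, and coordinates are given from that annotation. The depths printed come from the steps of the low values. Up to 20 reads, 76.5% to 77.3% of the values were whole reads (within 0.05), so whole counts were not recovered and no count test was run. At 4 samples per genotype, the number of samples limits the precision, and genes under a few CPM also rest on few reads. The labels call the samples biological replicates.

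From the deposited values, log2(CPM + 1) was fitted with limma 3.58.1 in R 4.3.3 (eBayes with trend, 2-sided) over the 13850 genes that averaged 1 or more per 1e+06 of the column totals. Genes passed when the fold change was over 1.5 and the p, adjusted by the Benjamini-Hochberg method, no higher than 0.005, as in the study. Fold changes on the log2(CPM + 1) scale are too small for low genes. Timd4, under the filter, was compared by an exact permutation test (scipy 1.17.1). Tested on simulated data for 13850 genes, the fit recovered 76% of 100 genes changed by 1 on the log2 scale, 99% of 100 changed by 2, and called 0 unchanged genes. The simulated noise was independent between genes, with the same spread in both genotypes and no sample that differed over many genes. These rates therefore need not hold for the real samples.

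The genes named are the 10 receptors, the genes past the threshold of each related list (at most 4 by size of change) with its highest and lowest log2 fold change, leading and floor genes of the marker lists, and the 3 genes most like each receptor. A gene that this rule names is not reported here. Other related genes given with their values (Adam17 and Scarf1), and further markers of endothelium (Prox1, Ccl21a, Reln, Flt4, Kdr, Cdh5, Tek, Emcn and Cldn5) and macrophages, were named after their values were seen. The receptors and lists were chosen with earlier results of these data known. The 13 marker lists covered macrophages, lymphatic and blood endothelium, adipocytes, platelets, monocytes, neutrophils, dendritic cells, fibroblasts, T and NK cells, B cells, epithelial tumor cells and erythroid cells. The settings varied were the pseudocount (0.1 or 10), the filter (none or 5), the scaling (quantile normalization or the median of ratios), the trend of eBayes, arrayWeights, a block for the replicate number, each sample left out in turn, and a limit of 0.05 for the adjusted p with no fold change limit. Figures were drawn with matplotlib 3.10.9.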

Additional observations from a re-analysis of the deposited data

Results flagged for a closer look

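Of 20 groups of 4 samples examined (10 receptors in 2 genotypes), 1 held a sample far from the others. Timd4 in miR-21-/- replicate 2 was at 0.720 CPM (24 reads), while the other miR-21-/- samples were at 0.373, 0.384 and 0.430 CPM. Its gap to the next sample was 0.836 of the range of the group, above the critical value of Dixon for 4 samples. About 1 in 20 groups passes that limit by chance. Without this sample, the difference in mean Timd4 (miR-21-/- minus WT) was -0.0144 CPM instead of 0.0665 CPM.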

How the results depend on the processing

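Of the 9 tested receptors, Cd163, Stab1, Siglec1, Lyve1, Msr1 and Cd36 kept their direction in every alternative that gave a value. A filter of 5 left out Lyve1 and Marco. Directions near 0 did not hold, and the cause was not tested. Mrc1 was at -0.16 after quantile normalization, at -0.022 with arrayWeights and at -0.17 to 0.16 with 1 sample left out (below 0 without WT replicate 4 or miR-21-/- replicates 2 or 3). Folr2 was at -0.028 with arrayWeights and at -0.091 to 0.18 with 1 sample left out, Marco at -0.16 to 0.35, and the difference of Timd4 at -0.0144 to 0.138 CPM. The count of receptors past the threshold, 1 in the main analysis, was 0 with no filter, 2 with arrayWeights, 4 at an adjusted p at or under 0.05 with no fold change limit, and 1 to 3 with 1 sample left out, with 3 without WT replicate 4. Over all tested genes, 986 passed, 452 with a pseudocount of 10, 515 with no filter, 4982 at an adjusted p at or under 0.05, and 684 to 1002 with 1 sample left out. Of those called, 40.6% were higher in miR-21-/- TAMs, against 59.3% after quantile normalization and 59.8% with the median of ratios, where the median of all genes moved from -0.10 to -0.0076 and -0.0030.

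The replicate numbers did not pair the samples (correlations of same-numbered samples 0.083, -0.11, -0.14 and 0.22), and those of the miR-21-/- samples do not match their titles. With the replicate number as a block, 922 genes and 2 receptors passed, Cd163 among them (limma adjusted p = 0.00131), and 3 genes of lipid uptake and storage. Counts in the related lists moved as follows, with the cause not tested. With a pseudocount of 10, they were 3 of other receptors, 1 of haem, 0 of lipids and 0 of shedding. With no filter, they were 2 of other receptors, 3 of Lyve1+ Folr2+ macrophages, 0 of regulators, 1 of haem and 1 of shedding. With arrayWeights, they were 2 of regulators, 2 of lipids and 1 of shedding. Lipids had 0 after quantile normalization and 3 with the median of ratios, and shedding 1 with a filter of 5. At an adjusted p at or under 0.05, they were 12 of other receptors, 10 of regulators, 5 of haem, 6 of lipids and 5 of the endocytic coat. With 1 sample left out, the ranges were 4 to 7 of other receptors, 5 to 9 of Lyve1+ Folr2+ macrophages, 1 to 2 of regulators, 1 to 2 of haem, 0 to 3 of lipids, 1 to 2 of shedding and 0 of the endocytic coat. Lyve1, Marco and Timd4 rest on 4 to 136 reads per sample, and the part of depth in their spread was not tested.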

Other observations

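Of the other scavenger and endocytic receptors, 8 were below the filter on low values, with lower means in miR-21-/- TAMs for all but Megf10 and Timd2. Of the 8, 3 did not overlap between the groups. The 35.1% without overlap was taken over tested genes, above the filter, so it is no background for these. Values are given with no test. Vsig4, the complement receptor of resident macrophages, had 0.568, 0.797, 0.891 and 0.319 CPM in WT replicates 1 to 4 and at most 0.0993 CPM in any miR-21-/- sample. Stab2, the homolog of Stab1 known from liver sinusoids, had 0.528, 1.97, 1.44 and 0.359 CPM in WT and at most 0.115 CPM in miR-21-/- TAMs. Cd209f, a C-type lectin, had 0.635, 2.09, 0.924 and 0.199 CPM in WT and at most 0.0900 CPM in miR-21-/- TAMs. Each was lowest, within WT, in replicate 4, and each was above all miR-21-/- samples there as well. These 3 genes were chosen after their values were seen. Of the other 5, Megf10 had a higher mean in miR-21-/- TAMs (0.433 CPM against 0.227 CPM), Timd2 was above the floor only in miR-21-/- replicates 3 and 4 (0.0148 and 0.0332 CPM), and Mrc2, Cd209b and Folr1 had lower means there, and the groups overlapped for each.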
